A study of Mus musculus with 8 samples.

Results

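The 10 genes described here encode proteins that neutrophils store in their granules, and they were measured in liver RNA of mice with colitis. They were chosen by name: Mpo, Elane, Prtn3 and Ctsg belong to the azurophil granules, which form early in neutrophil maturation, and Ngp, Camp, Ltf, Lcn2, Mmp8 and Mmp9 to the specific and gelatinase granules, which form later. All 10 were among the 22180 genes that a row of the array named alone, and each was named by 1 row only. Livers of 4 mice labelled IL-10 knockout and 4 wild-type mice were hybridized to 1 Affymetrix Mouse Gene 2.0 ST array each. Both genotypes were C57BL/6 mice, labelled female and aged 6 weeks, that had drunk 3% dextran sulfate sodium (DSS), a colon irritant that causes colitis, for 7 days. No liver of a mouse without DSS is part of the comparison, so it is between genotypes under colitis, and the sources do not say how the Il10 allele was made. Values are log2 levels from robust multi-array averaging (RMA), and errors are SD over 4 arrays per group unless SE is stated. A gene was called when its limma p, adjusted over all 22180 genes by Benjamini-Hochberg, was below 0.05. Litters and cages are not stated, so a p-value covers only the spread among these 8 samples.

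Neutrophils build their granules in waves while they mature in the bone marrow. Azurophil proteins such as myeloperoxidase and the serine proteases are transcribed at the promyelocyte stage, specific granule proteins at the myelocyte stage under the transcription factor C/EBP epsilon, and gelatinase later still. Mature neutrophils that leave the marrow carry the proteins of all waves, while the messenger RNA of the azurophil proteins has largely been shut off. Some of these genes are also used outside neutrophils, and Lcn2 is an acute-phase product of hepatocytes in inflamed liver.

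Before the members, 2 features of the arrays bear on every value. The labels give all 8 mice as female, but knockout-labelled replicates 1 and 2 and wild-type replicates 1 and 2 had Y-linked signal (Kdm5d between 8.03 and 8.17 on the log2 scale) and little Xist signal. The other 4 arrays, replicates 3 and 4 of each genotype, had Xist between 11.68 and 11.82 and Kdm5d between 4.42 and 4.56. Each genotype has 2 arrays of each kind, and results are given below within each kind. Il10, the targeted gene, was higher in the knockout-labelled arrays (5.97 ± 0.32) than in the wild-type arrays (4.97 ± 0.08), a difference of 1.00 (SE 0.14; limma adjusted p = 0.00851). The position of the mutation relative to the probes is not stated, so this row does not check the labels, and the arrays are called knockout-labelled. Liver identity was plain in all arrays, where the mean level of 10 hepatocyte markers lay between 12.30 and 12.43 in knockout-labelled and between 12.27 and 12.42 in wild-type arrays. Of these markers 1, Tat, was called higher in the knockout-labelled arrays (0.51; limma adjusted p = 0.0247), beside 1.56% of all genes. That call held in 4 of the 8 fits that left out 1 array. The arrays' medians over all rows lay between 6.09 and 6.22, and the values carry no mark of detection. Camp, Ctsg and wild-type Ltf, Mpo and Ngp lay near or below those medians, where a fold change can be compressed.

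The DNA just before the start of 9 of the 10 genes was at hand, from RefSeq on GRCm38.p6, and 5 of these stretches are printed to show the motifs counted below. Each is 250 bases long and ends at the base before the gene's start. Capitals mark 3 motifs on either strand: AGGAAGT, a core of PU.1 and other ETS factor sites, CAACGG, a MYB-type motif, and TTGCNNAA, a C/EBP-type palindrome. Prtn3 (chr10:79879417-79879666, plus strand) and Elane (chr10:79886062-79886311, plus strand) are adjacent genes and are shown as a pair. Ngp (chr9:110419558-110419807, plus strand), Mmp8 (chr9:7558179-7558428, plus strand) and Ltf (chr9:111019042-111019291, plus strand) are shown for the later class.
Prtn3: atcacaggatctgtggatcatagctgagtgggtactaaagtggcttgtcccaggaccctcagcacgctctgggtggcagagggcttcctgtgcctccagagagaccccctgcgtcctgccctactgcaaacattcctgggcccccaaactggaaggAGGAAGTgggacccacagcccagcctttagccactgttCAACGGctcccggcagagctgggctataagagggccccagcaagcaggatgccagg
Elane: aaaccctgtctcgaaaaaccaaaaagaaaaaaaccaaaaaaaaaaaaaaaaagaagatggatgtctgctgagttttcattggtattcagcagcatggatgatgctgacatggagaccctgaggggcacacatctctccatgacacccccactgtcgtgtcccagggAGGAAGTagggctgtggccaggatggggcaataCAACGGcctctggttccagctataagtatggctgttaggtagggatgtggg
Ngp: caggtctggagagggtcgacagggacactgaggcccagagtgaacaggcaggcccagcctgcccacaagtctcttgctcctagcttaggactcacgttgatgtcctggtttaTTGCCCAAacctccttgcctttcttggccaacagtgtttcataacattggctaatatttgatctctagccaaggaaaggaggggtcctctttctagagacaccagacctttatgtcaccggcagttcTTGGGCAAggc
Mmp8: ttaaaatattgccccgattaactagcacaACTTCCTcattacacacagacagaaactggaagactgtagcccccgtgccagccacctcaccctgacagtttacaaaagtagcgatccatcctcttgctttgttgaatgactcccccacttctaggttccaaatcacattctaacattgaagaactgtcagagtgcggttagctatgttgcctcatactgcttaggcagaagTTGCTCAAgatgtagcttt
Ltf: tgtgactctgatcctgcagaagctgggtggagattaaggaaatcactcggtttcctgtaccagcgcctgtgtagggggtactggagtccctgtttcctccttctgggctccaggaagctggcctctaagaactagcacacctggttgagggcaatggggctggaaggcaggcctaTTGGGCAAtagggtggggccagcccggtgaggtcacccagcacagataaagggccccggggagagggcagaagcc
The motif AGGAAGT stood in 4 of 4 early genes and in 1 of 5 later ones, Mmp8, and in 7.69% of 32851 promoter windows of the same length. In Prtn3 it lay 94 to 88 bases before the start and in Elane 84 to 78 bases before it. CAACGG followed it in both, at 56 to 51 bases in Prtn3 and 51 to 46 bases in Elane, and was in none of the other 7 windows (4.05% of all). TTGCNNAA stood in 0 of 4 early and 4 of 5 later genes (Ngp, Mmp8, Ltf and Lcn2), against 9.56% of all windows. The shorter C/EBP sequence GCAAT was in 2 of 4 early and 5 of 5 later windows (23.1% of all), and overlapped a TTGCNNAA match in Ngp and Ltf. An NF-kB-type motif was in 2 of 4 early and 2 of 5 later windows (45.8% of all), and TATAAA in 1 of 4 early and 0 of 5 later ones (12.4% of all). These motifs were picked with the sequences in view. A match describes the letters only, and the windows were not tested for binding.

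The later granule genes were higher in the knockout-labelled livers, while the early ones did not move together. Of the 6 later genes, 5 rose (Ngp, Mmp8, Mmp9, Lcn2 and Ltf), none fell, and Camp did not pass. Of the 4 early genes none rose, Prtn3 fell, and Mpo, Ctsg and Elane did not pass. The background was 1.56% of all genes called higher and 1.59% called lower, or 3.15% in either direction. The median difference, knockout-labelled minus wild-type, was 0.85 over the 6 later genes and 0.14 over the 4 early genes, beside 0.03 over all 22180 genes. The difference between both classes was not tested, since the members were chosen with earlier results of these data known.

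**Figure D1:**
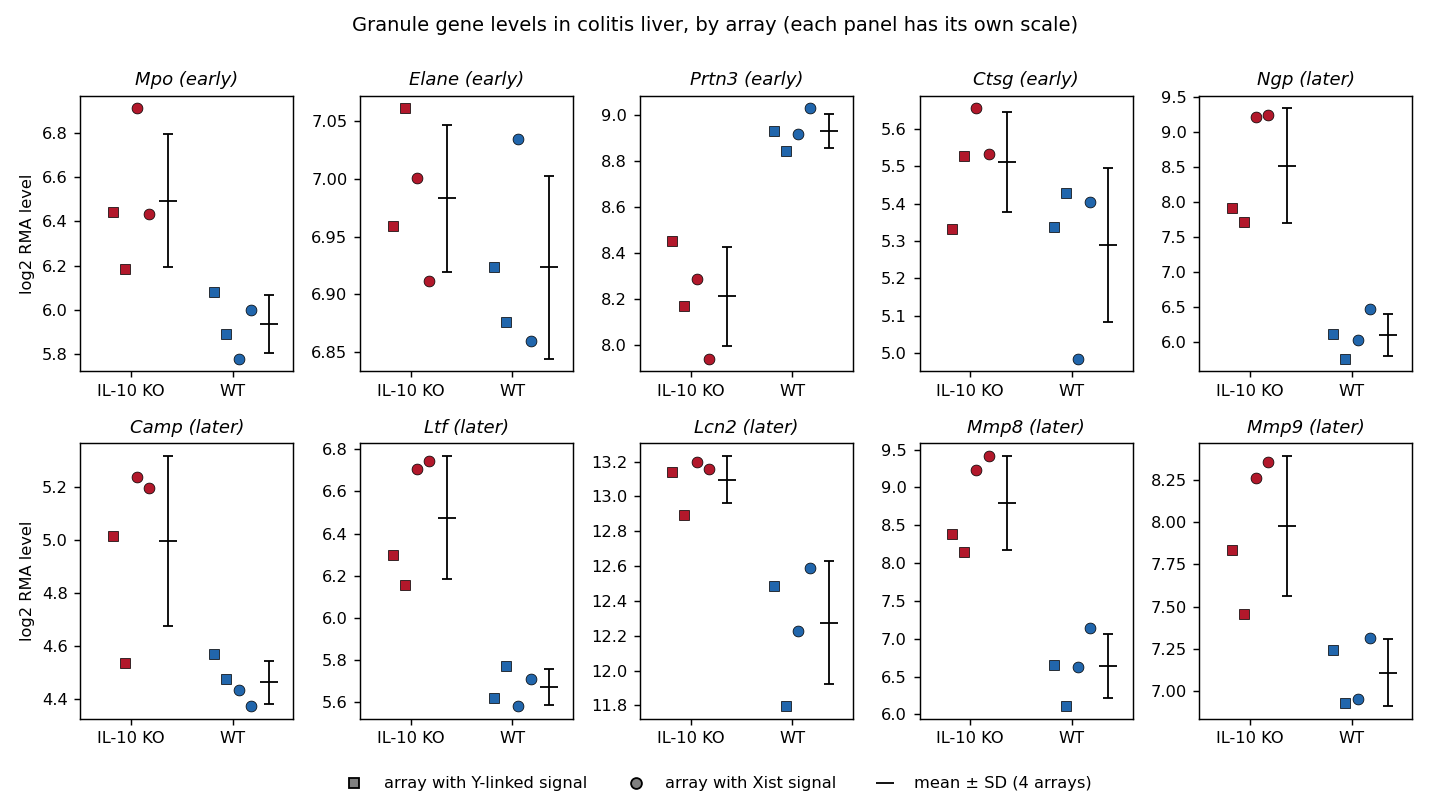
Log2 RMA level of the 10 granule genes in each array, knockout-labelled arrays (red) left of wild-type arrays (blue), squares for arrays with Y-linked signal, circles for arrays with Xist signal, and a bar for mean ± SD of 4 arrays. Both groups stand apart for Ngp, Mmp8, Mmp9, Lcn2, Ltf, Mpo and Prtn3 and overlap for Elane, Ctsg and Camp. Of all genes, 12.9% stood apart in either direction.

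Ngp, which encodes neutrophilic granule protein, a cathelicidin-related protein of specific granules in mice, changed most among the members. It read 7.91, 7.71, 9.21 and 9.24 in the knockout-labelled arrays, listed by replicate number, against 6.12, 5.76, 6.04 and 6.48 in the wild-type arrays. The lowest knockout-labelled array lay 1.23 above the highest wild-type array. The means of 8.52 ± 0.82 in knockout-labelled and 6.10 ± 0.29 in wild-type arrays differ by 2.42 (SE 0.34), or 5.34-fold (limma adjusted p = 0.00851). The call held in all 8 fits that left out 1 array (adjusted p up to 0.0347).

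Mmp8, neutrophil collagenase, a metalloprotease of specific granules that cuts fibrillar collagen, came next. Its levels were 8.38, 8.14, 9.23 and 9.41 in the knockout-labelled arrays and 6.65, 6.11, 6.63 and 7.15 in the wild-type arrays. All 4 knockout-labelled arrays were higher, and replicates 3 and 4 were the highest of them. The difference was 2.16 (SE 0.30), or 4.47-fold (limma adjusted p = 0.00815), and it was called without any 1 array (adjusted p up to 0.0319).

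Mmp9, gelatinase B, which gives gelatinase granules their name and is also made by other leukocytes, rose less. It read 7.84, 7.45, 8.26 and 8.36 in the knockout-labelled arrays, against 7.24, 6.93, 6.95 and 7.31 in the wild-type arrays. The groups came within 0.14 of each other, between knockout-labelled replicate 2 and wild-type replicate 4. The difference was 0.87 (SE 0.19; 1.83-fold; limma adjusted p = 0.0392). The call was lost without any wild-type array or when knockout-labelled replicate 3 or 4 was left out (adjusted p up to 0.116).

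Ltf, lactoferrin, an iron-binding protein of specific granules, was at 6.30, 6.16, 6.71 and 6.74 in the knockout-labelled arrays and at 5.62, 5.77, 5.58 and 5.71 in the wild-type arrays. The wild-type arrays were close together, with an SD of 0.09, and all were lower. The difference was 0.80 (SE 0.13; 1.75-fold; limma adjusted p = 0.0148), and it narrowly missed the threshold without wild-type replicates 1 or 3 (adjusted p up to 0.0524).

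Lcn2, lipocalin 2, which binds bacterial siderophores and is made both by neutrophils and by hepatocytes, was close to the top of the scale in all livers. It read 13.14, 12.90, 13.19 and 13.16 in the knockout-labelled arrays, against 12.49, 11.80, 12.23 and 12.59 in the wild-type arrays. The knockout-labelled arrays were close together and all higher. The difference was 0.82 (SE 0.16; 1.77-fold; limma adjusted p = 0.0261). Any of 4 omissions ended the call, those of wild-type replicate 1, wild-type replicate 3, knockout-labelled replicate 3 and knockout-labelled replicate 4 (adjusted p up to 0.0790). The cells that made the transcript are not resolved in whole-liver RNA, and for every gene here more cells of a type and more RNA per cell cannot be told apart.

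Camp, the cathelicidin precursor of an antimicrobial peptide, was faint in all arrays. It read 5.01, 4.54, 5.24 and 5.20 in the knockout-labelled arrays and 4.57, 4.47, 4.43 and 4.37 in the wild-type arrays. Knockout-labelled replicate 2 lay inside the wild-type range, and the other 3 lay above it. The difference of 0.53 (SE 0.14) did not pass (limma adjusted p = 0.0713), while without knockout-labelled replicate 2 it was 0.69 with adjusted p = 0.00980 (0.00980 to 0.670 over 20 alternatives).

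Prtn3, proteinase 3, a serine protease of azurophil granules, fell and stood alone among the members in direction. It read 8.45, 8.17, 8.29 and 7.94 in the knockout-labelled arrays, against 8.93, 8.85, 8.92 and 9.03 in the wild-type arrays. The groups stood 0.39 apart, and the wild-type arrays varied little. Of all genes, 5.74% had all knockout-labelled arrays below all wild-type arrays, by a gap of any size. The means of 8.21 ± 0.22 in knockout-labelled and 8.93 ± 0.08 in wild-type arrays differ by -0.72 (SE 0.11), 1.65-fold lower (limma adjusted p = 0.0101). The call held in all 8 fits without 1 array (adjusted p up to 0.0370).

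Elane, neutrophil elastase, is the gene next to Prtn3, has both of the motifs AGGAAGT and CAACGG at like distances from its start (sequences above), and did not pass. Its levels were 6.96, 7.06, 7.00 and 6.91 in the knockout-labelled arrays and 6.92, 6.88, 7.03 and 6.86 in the wild-type arrays. The groups overlapped, and the difference was 0.06 (SE 0.07; limma adjusted p = 0.646).

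Mpo, myeloperoxidase, which makes hypochlorous acid, leaned upward without passing. It read 6.44, 6.19, 6.91 and 6.44 in the knockout-labelled arrays, against 6.08, 5.89, 5.78 and 6.00 in the wild-type arrays. The groups did not overlap, as was so in the same direction for 7.2% of all genes. The difference was 0.56 (SE 0.14; 1.47-fold; limma adjusted p = 0.0624), and it passed without knockout-labelled replicate 2 (adjusted p = 0.0422; 0.0422 to 0.429 over 21 alternatives).

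Ctsg, cathepsin G, a chymotrypsin-like protease that mast cells also hold, was faint and did not pass. It read 5.33, 5.53, 5.66 and 5.53 in the knockout-labelled arrays and 5.34, 5.43, 4.98 and 5.41 in the wild-type arrays. The groups overlapped, with wild-type replicate 3 the lowest array, and the difference was 0.22 (SE 0.11; limma adjusted p = 0.281).

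**Figure D2:**
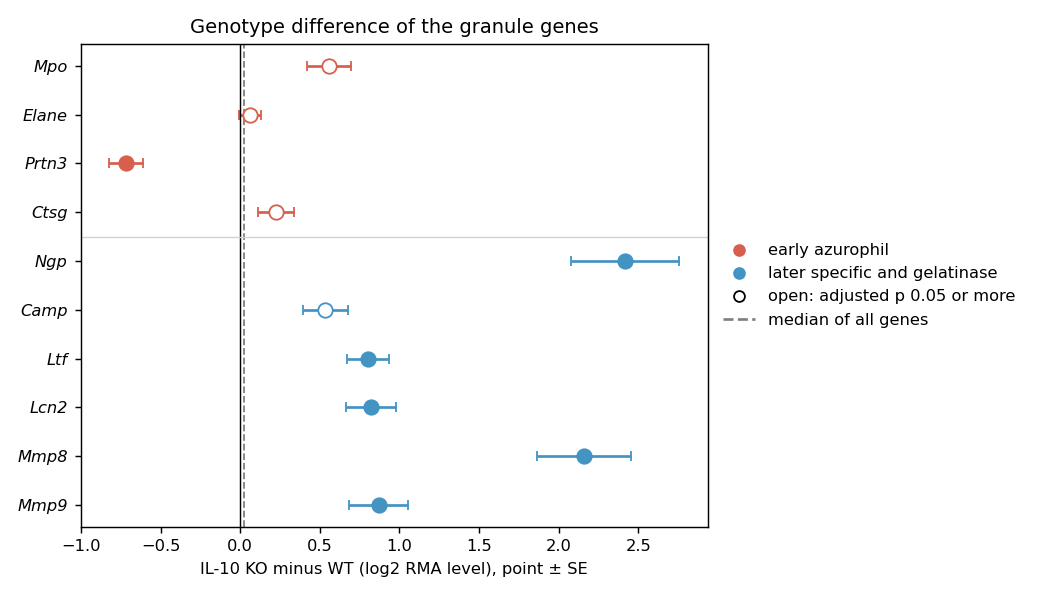
Difference between knockout-labelled and wild-type arrays (log2, point ± SE from limma) for the early (red) and later (blue) granule genes, filled where the adjusted p was below 0.05, with a dashed line at the median of all genes (0.03). Ngp (2.42) and Mmp8 (2.16) lie farthest to the right, and Prtn3 (-0.72) is the one member left of 0.

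Set against each gene's wild-type mean, the median of the 6 later genes was 0.80, 0.55, 1.09 and 1.16 in the knockout-labelled arrays, against 0.06, -0.26, -0.05 and 0.26 in the wild-type arrays. The groups did not overlap. The same median over the 4 early genes was 0.04, 0.19, 0.22 and 0.12 in the knockout-labelled arrays and 0.02, -0.05, -0.09 and 0.08 in the wild-type arrays, and there the groups overlapped. The count of later genes called higher changed when 1 array was left out. It was 2 (Ngp and Mmp8) without wild-type replicate 1 or 3 and 3 (these and Ltf) without knockout-labelled replicate 3 or 4. Without wild-type replicate 1 the difference grew for Mmp9 (0.91) and Lcn2 (0.89) and shrank for Ltf (0.79), and each lost its call. In that fit 207 of all genes were called, against 699 with all arrays.

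The rise of the later genes was seen in both kinds of array and was mostly larger in those with Xist signal. In the 4 arrays with Xist signal, 5 of the 10 members were called higher (Ngp, Mmp8, Mmp9, Ltf and Camp). Of all 22180 genes, 133 were called higher there, and 1.43% in either direction. In the 4 arrays with Y-linked signal, 2 members were called higher (Ngp and Mmp8). Of all genes, 102 were called higher there, and 0.771% in either direction. The median difference of the 6 later genes was 1.13 among arrays with Xist and 0.72 among arrays with Y-linked signal. For the 4 early genes it was 0.20 and 0.08 in the same order. Prtn3 was lower in both, with -0.86 in the arrays with Xist signal (limma adjusted p = 0.0572) and -0.58 in those with Y-linked signal (limma adjusted p = 0.138). All 10 members kept the sign of their difference in both kinds of array.

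Among the knockout-labelled arrays, both with Xist signal were above both with Y-linked signal for 6 of 6 later genes and 1 of 4 early genes, Ctsg, as was the case for 22.7% of all genes. Among the wild-type arrays this was so for 0 of 6 later and 0 of 4 early genes, beside 16.3% of all genes. Ngp averaged 9.22 in knockout-labelled arrays with Xist signal and 7.81 in those with Y-linked signal, against 6.26 and 5.94 in the wild-type arrays of the same kinds. Its genotype difference was therefore 2.97 in the first kind and 1.87 in the other. The difference between these, 1.09 (SE 0.24), did not pass over all genes (limma interaction adjusted p = 0.521). No member passed this interaction in limma (0 of 10), 4 of 10 had an unadjusted p under 0.05 (Ngp, Ltf, Camp and Mmp9), and the background was 0.0271% of genes after adjustment and 5.48% before it.

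**Figure D3:**
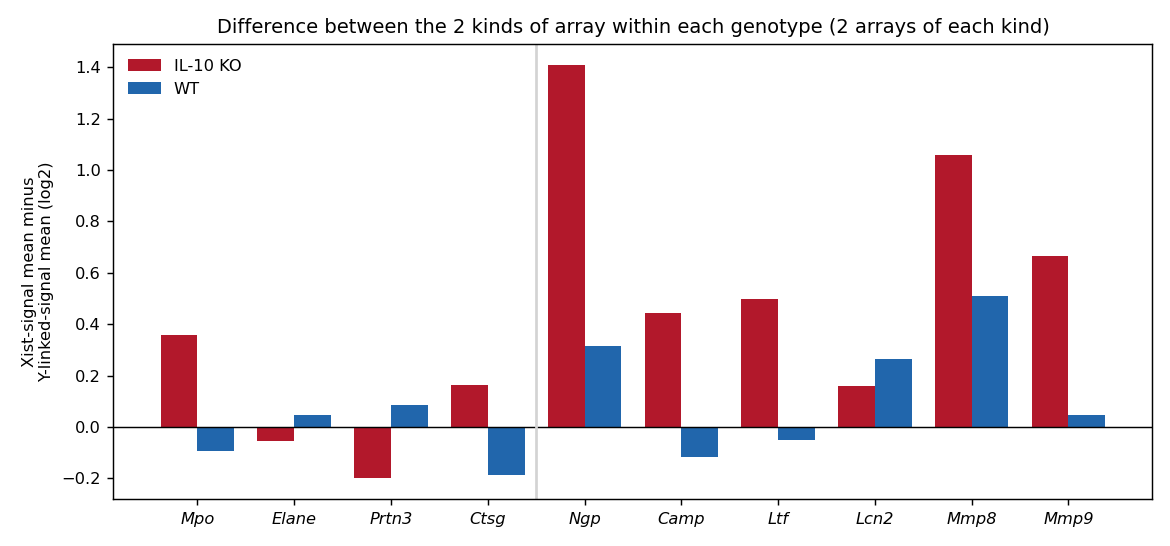
Mean of the arrays with Xist signal minus mean of the arrays with Y-linked signal (log2) for each granule gene, in knockout-labelled (red) and wild-type (blue) livers, with 2 arrays of each kind per genotype and no error bar. The red bars are positive for all 6 later genes, up to 1.41 for Ngp, while the blue bars lie between -0.19 and 0.51.

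Other genes of both granule classes were followed in lists that hold none of the 10 members. In the list of 19 further specific and gelatinase granule genes, the median difference was 0.48 beside 0.03 over all genes. Of the 19, 9 rose, none fell and 10 did not pass, beside 1.56% of all genes called higher. They include the metal transporter Slc11a1 (0.72), the integrin chain Itgb2 (0.57), the NADPH oxidase subunits Cybb (0.77) and Cyba (0.56), the chitinase-like Chil3 (1.05) and the surface receptor Cd177 (0.93), with limma adjusted p between 0.00587 and 0.0325. Several of them, Itgb2, Cybb, Cyba and Slc11a1, are used by macrophages and monocytes as well. In the list of 11 measured azurophil granule and processing genes, only Srgn, the proteoglycan serglycin that packs granule proteins and is made by many blood cells, rose (0.39; limma adjusted p = 0.0346), and 10 did not pass, with a median of 0.05. Other genes of that list were outside the rule for named genes, and those given here were picked after their values were seen. Ctsc, which activates the granule serine proteases, had a difference of 0.01. Ms4a3, a marker of granulocyte and monocyte precursors, had 0.04 and was faint, at 5.26 in the knockout-labelled and 5.22 in the wild-type arrays. Lyz2 had a difference of 0.39 (limma adjusted p = 0.155) and Hexa one of -0.40 (limma adjusted p = 0.0595). Omitting wild-type replicate 1, 2 or 3 gave 3, 4 or 5 calls in place of 9, omitting knockout-labelled replicate 4 gave 4, testing every row gave 5, and the rise of Srgn was called in 1 of the 8 fits without 1 array.

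Genes of mature neutrophils were higher in the same arrays. Of 19 measured, 9 rose, none fell and 10 did not pass, beside 1.56% of all genes called higher. The median difference was 0.61. The chemokine receptor Cxcr2 rose by 0.86, the calprotectin subunit S100a8 by 1.65, Ifitm6 by 1.89, the resistin-like Retnlg by 1.26, the receptor for granulocyte colony-stimulating factor Csf3r by 0.43 and the surface antigen Ly6g by 0.88 (limma adjusted p between 0.00815 and 0.0251). Their mean level lay between 6.86 and 7.24 in the knockout-labelled arrays and between 6.14 and 6.51 in the wild-type arrays. Omitting wild-type replicate 1, 2 or 3 gave 4, 5 or 4 calls in place of 9, omitting knockout-labelled replicate 4 gave 3, and testing every row gave 5.

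Markers of other myeloid cells were also higher in the knockout-labelled arrays, and their part in the result was not tested. Of all genes, 1.56% were called higher. Of 12 Kupffer cell and macrophage markers 6 rose and none fell (median 0.57), among them the complement subunits C1qb (0.64) and C1qc (0.51), the scavenger receptor Cd163 (1.01), the growth factor receptor Csf1r (0.56), and Vsig4 (0.61) and Cd5l (0.57), which mark resident macrophages. Their mean level lay between 9.82 and 10.27 in the knockout-labelled and between 9.29 and 9.59 in the wild-type arrays. Of 10 monocyte markers 4 rose and none fell (median 0.56): Fcgr4 (1.37), Cd14 (2.51), Plac8 (1.06) and Ly6c2 (1.54), with mean levels between 6.75 and 7.31 in the knockout-labelled and between 5.93 and 6.23 in the wild-type arrays. The macrophage count of 6 was 2 without wild-type replicate 1, wild-type replicate 2 or knockout-labelled replicate 4, and 3 without knockout-labelled replicate 2. The monocyte count of 4 was 2 without wild-type replicate 1 or 2. The macrophage count also moved with the processing. It was 3 with a common median per array and 3 with the replicate number as a block, against 9 with quantile normalization, 10 with cyclic loess and 11 with array weights, and 2 with every row tested. All 12 macrophage differences were positive, between 0.30 and 1.20. Their median against the wild-type mean was 0.48, 0.73, 0.30 and 0.71 in the knockout-labelled arrays and -0.06, -0.15, 0.17 and 0.04 in the wild-type arrays. For the monocyte markers it was 0.81, 0.29, 0.37 and 0.87 in the knockout-labelled arrays and -0.04, -0.11, 0.10 and 0.06 in the wild-type arrays. The median genotype difference of the macrophage markers was 0.71 among arrays with Y-linked signal and 0.40 among those with Xist signal. In the same order it was 0.68 and 0.59 for the monocyte markers, and 0.72 and 1.13 for the later granule genes. Cd14, the lipopolysaccharide co-receptor, read 8.60, 8.47, 8.72 and 10.35 in the knockout-labelled arrays, against 6.77, 6.02, 6.76 and 6.55 in the wild-type arrays.

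Markers of mast cells, basophils, eosinophils and progenitors, which can hold early granule transcripts, gave 1 call. Of all genes, 1.56% were called higher. None of 12 mast cell, basophil and eosinophil markers was called by limma, with a median of 0.09. At a limma unadjusted p under 0.05 there were 0 of them, beside 4700 of all 22180 genes. Their mean levels lay between 4.64 and 4.80 in the knockout-labelled and between 4.57 and 4.65 in the wild-type arrays. Leaving out the lowest 40% of genes removed all 12. At such levels a fold change can be compressed, so the list says little about these cells. The smallest p in that list belonged to Gata2 (0.22) and Cpa3 (0.19). Of 10 haematopoietic progenitor and proliferation markers only Flt3, a receptor of progenitors and dendritic cells, rose (0.44; limma adjusted p = 0.0143), and the median was -0.06. Their mean level lay between 6.57 and 6.67 in the knockout-labelled and between 6.48 and 6.81 in the wild-type arrays. Flt3 itself was faint, at 5.99 ± 0.05 in the knockout-labelled and 5.55 ± 0.10 in the wild-type arrays. It was among the lowest 40% of genes, and without those 0 of this list were called. Erythroid markers were lower in part. Of 12 measured 3 fell and none rose, or 25% beside 1.59% of all genes called lower: the carbonic anhydrases Car2 (-1.57) and Car1 (-0.95) and Tspan33 (-0.52). The other 9 did not pass, and the median was -0.16. Left out singly, wild-type replicate 2 and knockout-labelled replicate 4 each brought that count to 1, and wild-type replicate 1, wild-type replicate 3 and knockout-labelled replicate 3 to 2; with every row tested it was 1.

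**Figure D4:**
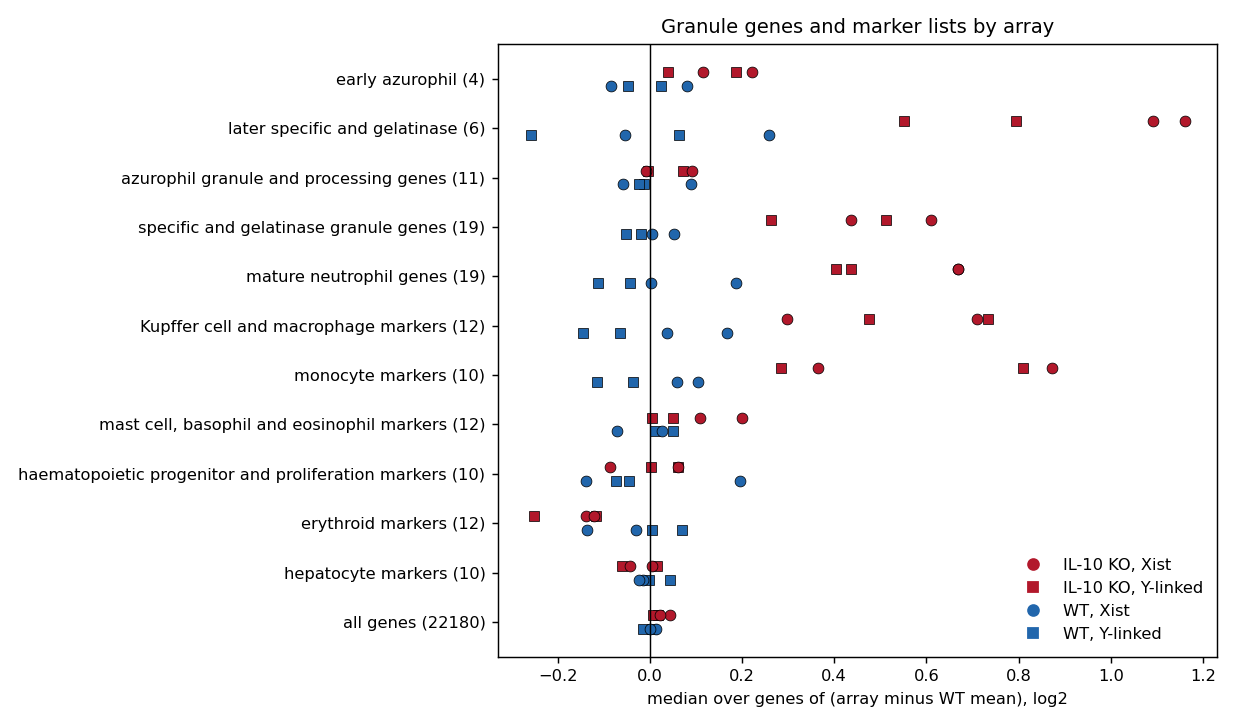
Median over the genes of each list of the array's log2 level minus the wild-type mean, for the early and later granule genes, the granule and marker lists (number of genes in brackets) and all genes, with knockout-labelled arrays in red above wild-type arrays in blue. The later granule genes lie between 0.55 and 1.16 in the knockout-labelled arrays and between -0.26 and 0.26 in the wild-type arrays, while the early ones overlap.

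Of 10 transcription factors of the granulocyte programme 3 rose, or 30% beside 1.56% of all genes called higher, with a median of 0.19. Spi1, which encodes PU.1, rose by 0.66, Cebpd, induced in inflammation, by 0.84 and Runx1 by 0.94 (limma adjusted p = 0.00704, 0.0292 and 0.0429), none fell and 7 did not pass. The count of 3 was 1 in each of 6 fits, namely on omission of any 1 of the 4 wild-type livers and of knockout-labelled replicate 3 or 4, and 1 with every row tested. Picked after their values were seen, Cebpe, the factor of the specific granule stage, had a difference of -0.16 (limma adjusted p = 0.579), and Gfi1 0.06 (limma adjusted p = 0.727).

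Inhibitors and partners of the granule proteins gave no call. None of 19 measured was called by limma, beside 3.15% of all 22180 genes. At a limma unadjusted p under 0.05 there were 7 of the 19, beside 4700 of all genes. The median was -0.05, and the differences lay between -0.30 and 2.08. The largest, picked after its values were seen, was that of A2m, alpha-2-macroglobulin, a broad protease inhibitor. It read 6.72, 7.33, 7.64 and 11.83 in the knockout-labelled arrays, against 6.22, 6.28, 6.28 and 6.45 in the wild-type arrays. The groups did not overlap, but knockout-labelled replicate 4 stood far above the other 3, and the difference of 2.08 (SE 0.90) did not pass (limma adjusted p = 0.222). The smallest p belonged to Serpina1a, an alpha-1-antitrypsin gene (-0.28; limma adjusted p = 0.121), and Timp4, an inhibitor of metalloproteases (0.31; limma adjusted p = 0.122).

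Across the 8 arrays, Ngp and Mmp8 had profiles close to each other. The measure was the root mean square distance between log2 profiles, each centred on its mean over the 8 arrays, so that genes of small change lie close to many others. Each of both was the other's nearest of all genes, at 0.20 log2 units. The nearest genes outside the members were Irak3, which dampens Toll-like receptor signals, Chil1, a chitinase-like protein, and Ifitm6 for Ngp (0.31, 0.31 and 0.32), and Irak3, Ifitm6 and Il1rn, the interleukin-1 receptor antagonist, for Mmp8 (0.23 to 0.25). The neutrophil surface antigen Ly6g was nearest to Lcn2 (0.14), and Nnmt, a methyltransferase of hepatocytes and other cells, to Ltf (0.10). For Mmp9 it was Trim3, for Camp Slc25a51 and for Mpo Nfkbia, an inhibitor of NF-kB.

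The profile of Prtn3 was far from those of the other members. The nearest 3 genes were Tkfc, a kinase of fructose metabolism, at 0.10, Uox, urate oxidase, at 0.10, and Mlxipl, the carbohydrate-responsive transcription factor ChREBP, at 0.12, all known as genes of hepatocytes. Uox averaged 11.23 ± 0.21 in the knockout-labelled arrays and 12.01 ± 0.06 in the wild-type arrays, and Tkfc 10.61 ± 0.14 in the knockout-labelled and 11.32 ± 0.15 in the wild-type arrays. Elane, the nearest member, ranked 10994 among all genes by distance to Prtn3. Elane itself and Ctsg lay nearest to genes with little change, Strada (0.02) and Il17c (0.04).

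**Figure D5:**
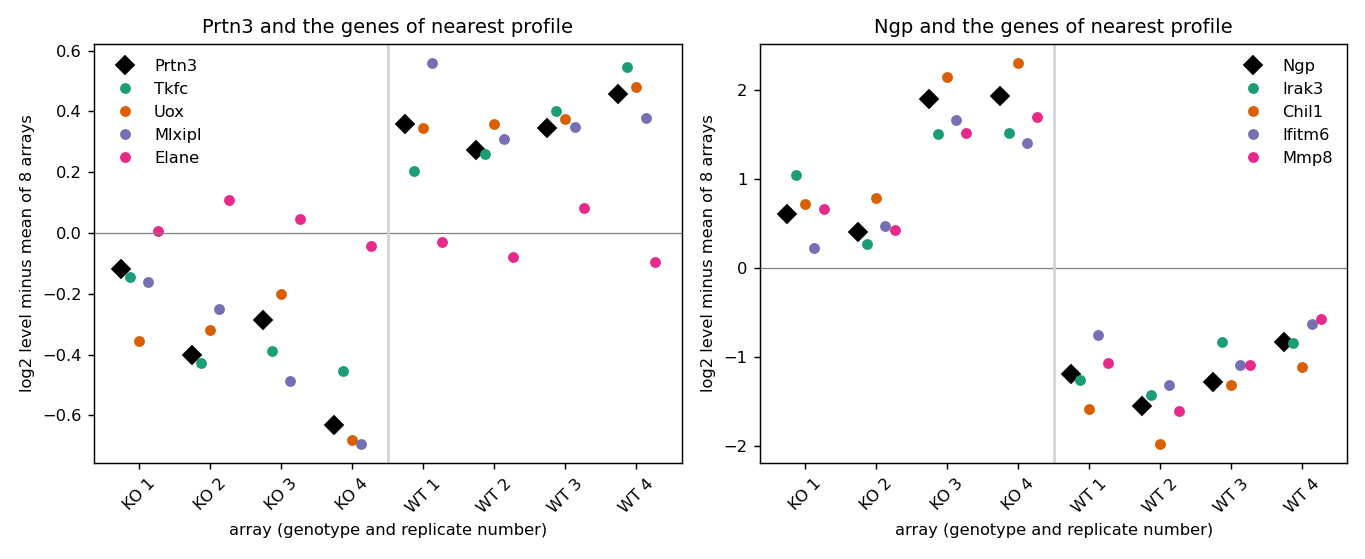
Log2 level minus the gene's mean over 8 arrays, for Prtn3 with its 3 nearest genes and Elane (left) and for Ngp with its 3 nearest genes outside the members and Mmp8 (right), knockout-labelled arrays left of wild-type arrays. Prtn3 lies below 0 in all 4 knockout-labelled arrays with Tkfc, Uox and Mlxipl while Elane stays near 0, and Ngp and Mmp8 are highest in knockout-labelled replicates 3 and 4.

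Apart from Prtn3, itself a member beside Elane, none of the measured genes next to the members on the chromosome was called. In RefSeq's order of genes on GRCm38.p6, Prtn3 and Elane are neighbours on chromosome 10, and Camp, Ngp, Ltf and Mmp8 all lie on chromosome 9. Of 18 such protein-coding neighbours that are no members, limma called 0, beside 3.15% of all 22180 genes. At a limma unadjusted p under 0.05 there were 5 of the 18, beside 4700 of all genes. Their differences lay between -0.39 and 0.39. Next to Ngp, Ptpn23 had -0.14 and Klhl18 0.10. Next to Ltf, Rtp3 had 0.02 and Ccrl2 0.01. The nearest to a call was Mmp27, a metalloprotease gene beside Mmp8, with 0.39 (limma adjusted p = 0.0621).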

How the data were processed

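Total RNA of 8 livers was hybridized to 8 arrays. The deposited values are log2 levels made by the authors with RMA in R 3.0.1, as the submitters' processing notes record it, per the labels. The sources used here do not give the probe summary or annotation build. Of 41345 rows, the platform's annotation gives 23521 just 1 gene, 1814 several and 16010 none. For a gene with several rows, the row of highest mean was kept, which gave 22180 genes. The number of arrays limits the precision.

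All 8 arrays were compared with limma 3.58.1 in R 4.3.3 (lmFit and eBayes, no covariate, no filter on low values), knockout-labelled minus wild-type, with Benjamini-Hochberg adjustment over all genes. A second fit added the kind of array (Xist or Y-linked signal) and its interaction with genotype. Every adjusted p is from limma. The steps were tested on simulated data. Figures used matplotlib 3.10.9 in Python 3.11.15. Promoter windows, 250 bases, are RefSeq's.

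The members and lists were chosen with earlier results of these data known. Named genes are the 10 members, up to 6 called members of each list (or its 2 of smallest p), 3 genes of nearest profile per member, and chromosomal neighbours. Predicted genes were skipped among the nearest profiles. The labels tie replicate numbers to no litter or batch, and the comparison is unpaired. Alternatives changed the filter, rows, normalization, moderation, block, threshold and arrays used. No array repeats another (smallest root mean square distance 0.26).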

Additional observations from a re-analysis of the deposited data

Results flagged for a closer look

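None of the 10 granule genes had an array far from the other 3 of its group. Among 45 genes looked at in both genotypes (90 groups of 4 arrays), 4 list genes had such an array, a gap that chance gives in about 1 in 20 groups. Cxcr2 was at 7.46 in wild-type replicate 3, the highest there. Vsig4 was at 11.25 in knockout-labelled replicate 1, the lowest there. Cd14 was at 10.35 in knockout-labelled replicate 4, the highest there. Cpa3 was at 3.87 in wild-type replicate 4, the lowest there.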

How the results depend on the processing

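No member changed the sign of its difference in 207 comparisons with an alternative. Alternatives that changed only the filter, rows, moderation or block gave the same difference, so its sign could not change there. Of the 207 comparisons, 178 stayed on their side of the threshold, 26 lost a call and 3 gained one. Ngp and Mmp8 lost theirs only in the unmoderated test. Members called higher, 5 as reported, were 3 with every row tested (fewer after adjustment over 41345 rows), 0 in the unmoderated limma test (8 members at an unadjusted p under 0.05), 2 among arrays with Y-linked signal and 2 to 7 without 1 array. The 1 member called lower, Prtn3, was 0 in the unmoderated test and in either kind of array alone, and 1 without any array. All genes called, 699 as reported, were 332 with every row, 0 unmoderated (4141 at an unadjusted p under 0.05), 171 with Y-linked and 317 with Xist arrays alone, 1685 at an adjusted p below 0.1, 377 with a 1.5-fold minimum, and 207 to 1040 without 1 array. Calls in 4 arrays rest on fewer samples; the cause of other changes was not tested. A common median per array moved the split of calls to 209 higher and 330 lower, from 347 and 352, and kept all 5 members. With the replicate number as a block, 497 genes, 5 members higher and 1 lower were called, and no member's call changed; same-numbered arrays correlated by 0.272, 0.041, -0.100 and 0.291, and not every array correlated best with its own number. Leaving out the lowest 40% of genes removed Ctsg, Camp and Ltf. The interaction called 0 members under every alternative run, of which all but quantile normalization were chosen after seeing the data; it was not run with the replicate block, within 1 kind of array or at other thresholds. Signals near the array median limit Camp, Ctsg and Ltf.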

Other observations

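Further genes of the specific and gelatinase granule list fell outside the rule for named genes and were picked after their values were seen. The 3 remaining called ones were Pglyrp1, Itgam and Qsox1. Pglyrp1, a peptidoglycan-binding protein of specific granules, read 8.29 ± 0.44 in the knockout-labelled and 7.40 ± 0.11 in the wild-type arrays (SD, n = 4 each), a difference of 0.89 (limma adjusted p = 0.0355). Itgam, the integrin chain CD11b of neutrophils and macrophages, read 7.33 ± 0.22 in the knockout-labelled and 6.62 ± 0.27 in the wild-type arrays, a difference of 0.71 (limma adjusted p = 0.0334). Both calls held in 3 of the 8 fits without 1 array. Qsox1, a sulfhydryl oxidase, read 12.34 ± 0.04 in the knockout-labelled and 12.02 ± 0.09 in the wild-type arrays, a difference of 0.32 (limma adjusted p = 0.0368), called in 2 of those 8 fits. Stom, the membrane protein stomatin, which red cells also hold, ran the other way. It read 9.79, 9.46, 8.91 and 9.06 in the knockout-labelled arrays, against 9.92, 9.93, 10.04 and 10.03 in the wild-type arrays. The groups did not overlap, and the difference of -0.68 did not pass (limma adjusted p = 0.0580). Within the arrays with Xist signal it was -1.05 (limma adjusted p = 0.0169) and within those with Y-linked signal -0.30 (limma adjusted p = 0.494). Olfm4, olfactomedin 4 of a subset of neutrophils, read 5.51 ± 0.16 in the knockout-labelled and 5.55 ± 0.07 in the wild-type arrays (limma adjusted p = 0.830).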
